A study of Mus musculus with 6 samples.

Results

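The NMDA receptor subunit genes Grin1, Grin2a, Grin2b, Grin2c, Grin2d, Grin3a and Grin3b were followed probe by probe on 6 Agilent arrays of RNA labelled as mouse hypothalamus. Every probe whose gene name in the scanner output was 1 of these 7 symbols was taken, which gave 17 probes of the 56605 on the array, for 7 of its 37074 gene names. The genes were chosen by the measured differences between GSK-J4 and vehicle arrays at the probes of Grin2a and Grin2b, which were known to disagree, so the differences of these 17 probes are given as a description and carry no test. The mice were male C57BL/6J DIO mice, in which obesity had been induced by the high-fat diet (60 kcal% fat) that both groups received. The 3 GSK-J4 arrays come from mice given GSK-J4 at 30 mg kg−1, and the 3 vehicle arrays come from mice given vehicle, listed as a dose of 0 mg kg−1. GSK-J4 inhibits the Kdm6 demethylases, enzymes that remove methyl groups from lysine 27 of histone H3. The design text places the tissue on day 4 after exposure and states that each of the experiments used a different mouse, the methods describe a longer course of daily injections and collection at ZT 6 h (ZT is the time since the lights came on), and the labels give no age. The comparison asks which transcripts of the hypothalamus differed after the inhibitor. The inhibitor reached the whole animal and the RNA came from whole tissue, in which fewer cells of a type and less RNA per cell cannot be told apart.

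NMDA receptors are glutamate-gated cation channels of excitatory synapses, built around the obligatory subunit GluN1 (Grin1), which binds the co-agonists glycine and D-serine. GluN2A to GluN2D (Grin2a to Grin2d) bind glutamate and set the gating of the channel and its block by magnesium, while GluN3A and GluN3B (Grin3a and Grin3b) bind glycine and lower calcium entry. In the hypothalamus these receptors carry light signals to the clock neurons of the suprachiasmatic nucleus, and on Agrp neurons they act in the drive to feed.

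Each probe is an oligonucleotide of 60 bases, and the files place it on build mm9. The probes of Grin2a, Grin1 and Grin2b that disagreed are shown beside other probes of the same gene, among them those nearest the 3′ end, because the report turns on these sets. G and C are in capitals and a and t in lower case, so that base composition can be read from the letters. Only the first 30 bases of each probe are printed.
Grin2a A_52_P62744: tCtCCaCttttCtCtCttCGGtaaaGtGat
Grin2a A_55_P1980481: GGtaaaCGttGGatGtCCaataGCaCCCta
Grin1 A_55_P2717085: tataaaaGCaaGtatCGaCCataaGaGGtG
Grin1 A_55_P2794809: GtaaaCCaGGCCaataaGCGaCaCGGCtCt
Grin1 A_65_P18935: aaGaGGGCtGaGCCttCtCttCtGtCtGCa
Grin2b A_55_P2637044: taGatCtCCGaaCaaaCaGatGCCaCaaGt
Grin2b A_52_P1044964: aaGGtGtttatCtaaGGaaGGCCattGaaC
Grin2d A_66_P111186: CGCaCCGtGCGCCCGCCGCCGCaCCGCaCC

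The Grin2a probe A_52_P62744 lies at chr16:9991772-9991831 on the minus strand, 414 kb upstream of the 3′-most Grin2a probe, and has 35% G and C. Its annotation lists Ensembl transcripts and cDNA clones but no RefSeq accession, and its whole sequence has a stop codon in every forward reading frame. The Grin2a probe A_55_P1980481 (chr16:9577803-9577862, minus strand, 45% G and C) is annotated to a RefSeq mRNA from base 4452 on and is the 3′-most of the 3. The Grin2a probe A_55_P2506140 has 36.7% G and C and is annotated to the same mRNA. The Grin1 probe A_55_P2717085 (chr2:25170176-25170235, minus strand, 41.7% G and C) again lists an Ensembl transcript and a cDNA clone without RefSeq accession, lies 23.2 kb upstream of the 3′-most Grin1 probe, and has a stop in every forward frame. The Grin1 probe A_55_P2794809 (chr2:25174212-25174271, 51.7% G and C) starts at base 436 of its RefSeq mRNA and has 1 frame without a stop, and the same Ensembl transcript is listed for it. The Grin1 probe A_65_P18935 (chr2:25146927-25146986, 55% G and C) is the 3′-most of the 3. The Grin2b probe A_55_P2637044 (chr6:135819781-135819840, minus strand, 43.3% G and C) is annotated to a cDNA clone only, has 2 forward frames without a stop and lies 138 kb upstream of A_52_P1044964 (chr6:135681653-135681712, 45% G and C), and the third Grin2b probe, A_52_P367017 (chr6:136121705-136121764, 41.7% G and C), lies 440 kb upstream of it, at base 414 of the RefSeq mRNA. The Grin2d probe A_66_P111186 (chr7:53088383-53088442, minus strand) is shown because 81.7% of its bases are G or C. Exons, introns and UTRs of build mm9 were not assigned, since no annotation of that build was used here.

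All 3 vehicle arrays lie on slide 1 and all 3 GSK-J4 arrays on slide 2, each slide with its own scan, so an effect of slide or scan and one of treatment cannot be told apart. The unnormalized signals had a 75th percentile between 787 and 916 on the vehicle arrays and between 406 and 461 on the GSK-J4 arrays, with 35534 to 35988 probes against 32661 to 33209 probes well above background. All 5 neuronal markers were kept, and their summed log2 signal was 16.9 to 17.1 on the vehicle arrays and 16.7 to 17.2 on the GSK-J4 arrays. Of 11 hypothalamic markers only 6 were kept (summed log2 signal 11.8 to 11.9 against 12.2 to 12.4, with Pomc and Npy called higher). Nkx2-1 and Sim1, transcription factors of hypothalamic development, stood well above background on 0 arrays, and Avp, Pmch and Trh on 1 vehicle array and 2 GSK-J4 arrays. All 7 markers of cortex and hippocampus were kept, at 15.7 to 15.8 against 15.6 to 15.7. The summed signal of the 5 choroid plexus markers was 16.7 on vehicle array 1 and 11.4 to 13.5 on the other 5 arrays, so values without vehicle array 1 are given for the subunits that differed most. The part of these differences in the results was not tested.

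Of the 17 subunit probes 14 were kept. A probe was kept if either group had it well above background on each of its 3 arrays, and these 14 were so on all 6 arrays. The other 3 probes, A_55_P2724464 of Grin2d and A_51_P146837 and A_55_P2715939 of Grin3a, were above background on 0 arrays and are given no difference. Values below are quantile normalized log2 signals, and a difference is the mean of the GSK-J4 arrays minus the mean of the vehicle arrays, with the standard error (SE) from limma over all kept probes. Signals before normalization were generally lower on the GSK-J4 arrays, so a higher value means higher relative to the other probes of an array. A probe's brightness depends on its sequence, so the levels of different probes or subunits are not ranked.

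**Figure D1:**
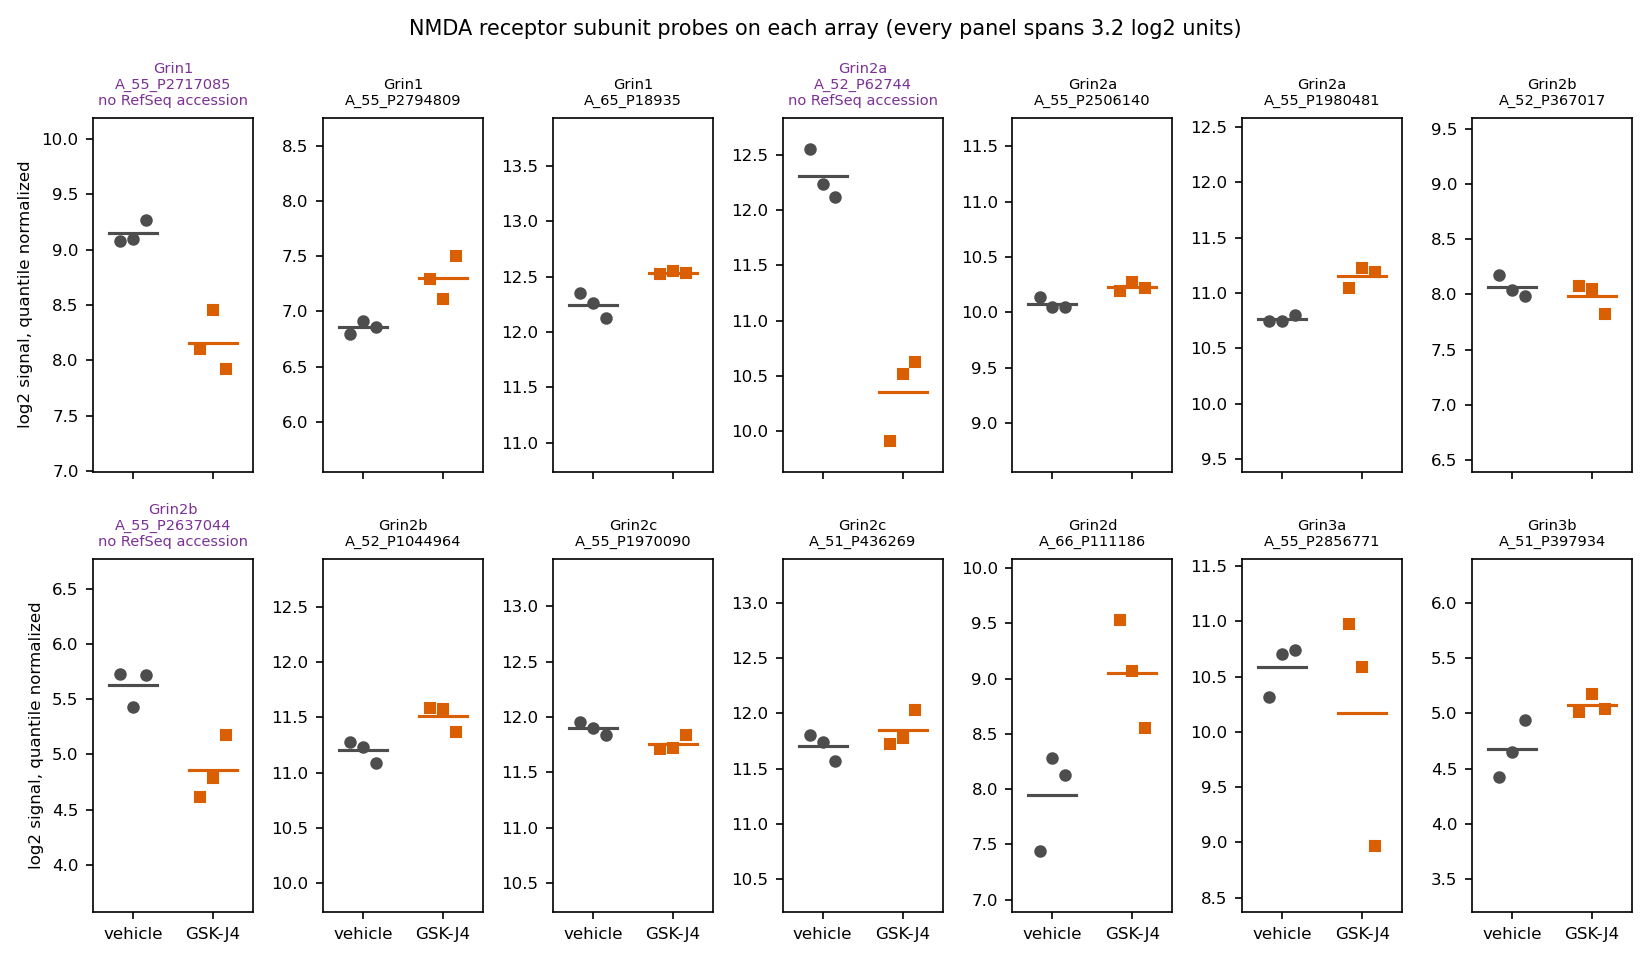
Quantile normalized log2 signal of the 14 kept probes of NMDA receptor subunits on each array, with vehicle as grey circles and GSK-J4 as orange squares (3 arrays each, in replicate order from left to right) and the group mean as a line. Every panel spans the same range, and the purple titles mark the 3 probes without a RefSeq accession, in which all GSK-J4 arrays lie below all vehicle arrays.

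GluN2A gave the widest disagreement. The probe A_52_P62744 read 12.56, 12.23 and 12.12 on the vehicle arrays and 9.92, 10.52 and 10.63 on the GSK-J4 arrays. Every GSK-J4 array lay more than 1 log2 unit below every vehicle array, and the difference of −1.95 (SE 0.22) is a 3.86-fold lower signal. Its signal before normalization was 5497 to 7226 on the vehicle arrays and 750 to 1120 on the GSK-J4 arrays. The probe A_55_P2506140 read 10.14, 10.05 and 10.04 against 10.19, 10.28 and 10.22, a difference of 0.15 (SE 0.070), or 1.11-fold, in the other direction. The 3′-most probe A_55_P1980481 read 10.74, 10.74 and 10.80 against 11.04, 11.23 and 11.19, a difference of 0.39 (SE 0.079), or 1.31-fold. In both of these probes the normalized GSK-J4 values lay above the vehicle values without overlap. After normalization the same gene name was thus far lower in GSK-J4 by 1 probe and slightly higher by the other 2. Before normalization these 2 were also lower on the GSK-J4 arrays. A_55_P2506140 had 1341 to 1594 on the vehicle arrays and 819 to 949 on the GSK-J4 arrays, and A_55_P1980481 had 2175 to 2550 and 1639 to 1862.

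Within each array, the probe A_55_P1980481 minus the probe A_52_P62744 of Grin2a was −1.81, −1.49 and −1.33 on the vehicle arrays and 1.13, 0.71 and 0.56 on the GSK-J4 arrays. Its means were −1.54 ± 0.25 and 0.80 ± 0.29 (SD, n = 3 each), and their distance of 2.34 is that between the differences of the 2 probes given above. The zero of the contrast depends on the brightness of the probes, so nothing is read from its sign. Without vehicle array 1 the low probe stood at −1.82 and the distance between the probes was 2.21.

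GluN1, the subunit every receptor needs, also had 1 probe apart from the other 2. The probe A_55_P2717085 read 9.08, 9.09 and 9.27 on the vehicle arrays and 8.10, 8.45 and 7.92 on the GSK-J4 arrays, a difference of −0.99 (SE 0.15), or 1.99-fold lower, and of −1.03 without vehicle array 1. The probe A_55_P2794809, a little further upstream, read 6.80, 6.91 and 6.86 against 7.29, 7.12 and 7.50, a difference of 0.45 (SE 0.11). The 3′-most probe A_65_P18935 read 12.35, 12.26 and 12.12 against 12.52, 12.55 and 12.53, a difference of 0.29 (SE 0.083). The groups did not overlap in any of the 3 probes, and the low probe lies between the other 2 along the gene.

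GluN2B, the subunit that prevails early in development, likewise had 1 probe well below the other 2. The probe A_55_P2637044 read 5.72, 5.43 and 5.72 on the vehicle arrays and 4.62, 4.79 and 5.17 on the GSK-J4 arrays, a difference of −0.76 (SE 0.17), or 1.70-fold lower, without overlap. Without vehicle array 1 it was −0.71. This probe was dim, with signals before normalization of 67 to 74 on the vehicle arrays and 18 to 23 on the GSK-J4 arrays. The probe A_52_P1044964 read 11.28, 11.24 and 11.09 against 11.58, 11.58 and 11.37, a difference of 0.31 (SE 0.097), also without overlap. The probe A_52_P367017, at the 5′ end of the mRNA, read 8.18, 8.04 and 7.98 against 8.08, 8.05 and 7.82, and its groups overlapped at a difference of −0.08 (SE 0.10). The distance between the highest and the lowest Grin2b probe was 1.07. It was 0.55 with normexp background correction, under which the low probe stood at −0.25.

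GluN2C and GluN2D form receptors with a weaker magnesium block. The Grin2c probe A_55_P1970090 (chr11:115110483-115110542, minus strand, 35% G and C) read 11.95, 11.90 and 11.83 against 11.71, 11.72 and 11.83, a difference of −0.14 (SE 0.076), with GSK-J4 array 3 just under vehicle array 3. The Grin2c probe A_51_P436269, 0.188 kb upstream with 53.3% G and C, read 11.80, 11.74 and 11.56 against 11.72, 11.78 and 12.03, a difference of 0.14 (SE 0.12) with overlapping groups. The 2 probes of 1 mRNA therefore leaned opposite ways by less than 0.3 in all, and the sign of each turned under other processing: A_55_P1970090 stood at 0.005 with 75th percentile scaling and at 0.028 with the GC trend removed, and A_51_P436269 at −0.12 with the GC trend removed. The Grin2d probe A_66_P111186 read 7.44, 8.28 and 8.13 against 9.53, 9.07 and 8.55, the largest upward difference of the 14 at 1.099 (SE 0.32), or 2.14-fold. Its lowest value was that of vehicle array 1. The difference was 0.85 without that array and 0.56 once the GC trend was removed.

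GluN3A and GluN3B had 1 kept probe each. The Grin3a probe A_55_P2856771 (chr4:49675661-49675720, minus strand, 35% G and C) read 10.32, 10.71 and 10.74 against 10.97, 10.59 and 8.96, and 1 array, GSK-J4 array 3, decided its difference of −0.42 (SE 0.53). Without that array the difference was 0.19. The Grin3b probe A_51_P397934 (chr10:79439842-79439901, plus strand, 45% G and C) read 4.43, 4.65 and 4.94 against 5.02, 5.17 and 5.04, a difference of 0.40 (SE 0.14) without overlap. This probe was dim, with signals before normalization of 30 to 42 on the vehicle arrays and 21 to 26 on the GSK-J4 arrays. Its difference ran from 0.15 with normexp background correction to 0.54 without vehicle array 3.

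Over the 14 kept probes, 8 differences were above 0 and 6 below, with a median of 0.15 beside 0.02 over all 34443 kept probes. At an adjusted p of at most 0.05 in limma over all kept probes, 1 probe counted as higher (A_55_P1980481 of Grin2a) where 8.38% of all kept probes did, and 3 as lower (A_52_P62744, A_55_P2717085 and A_55_P2637044) where 8.4% did. The thresholds of the methods are a 1.5-fold difference and a p of at most 0.05. With the unadjusted p of limma, these gave 1 higher (A_66_P111186 of Grin2d) and 3 lower, against 4.8% and 7.85% of all kept probes. The groups did not overlap in 11 of the 14, against 45.6% of all kept probes. These counts come from the contrast used to choose the genes, and nothing is read from them. Grin2a was the only subunit with probes counted in both directions, as were 21 of the 2008 other genes with 3 kept probes (1.05%). With the GC trend removed it was not, since 0 of the 14 probes then counted as higher and 3 as lower. The distance between the highest and lowest probe had a median of 0.50 over those 2008 genes (quartiles 0.28 and 0.80), beside 2.34 for Grin2a, 1.44 for Grin1 and 1.07 for Grin2b. The genes were chosen for such disagreement, so this comparison with other genes is a description and nothing is read from it.

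The 3 low probes shared an annotation that the choice of genes did not use. All 3 list no RefSeq accession, and they were the 3 lowest of the 14 at −1.95, −0.99 and −0.76, while the 11 kept probes with a RefSeq accession ran from −0.42 to 1.099. Of the 3 probes that were not above background, the 2 of Grin3a also list none. Across the array the 9699 kept probes without a RefSeq accession had a median difference of −0.15, with 17.9% called lower and 6.61% called higher, and the 24744 with one had a median of 0.06, with 4.68% lower and 9.08% higher. Among 3191 other genes with kept probes of both kinds, the probes without an accession minus those with one had a median of −0.30 (quartiles −0.66 and 0.04), and the value was below 0 in 2316 genes (72.6%). It was −2.22 for Grin2a, −1.36 for Grin1 and −0.88 for Grin2b, and 10.2% of the other genes had a value of −1 or lower.

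**Figure D2:**
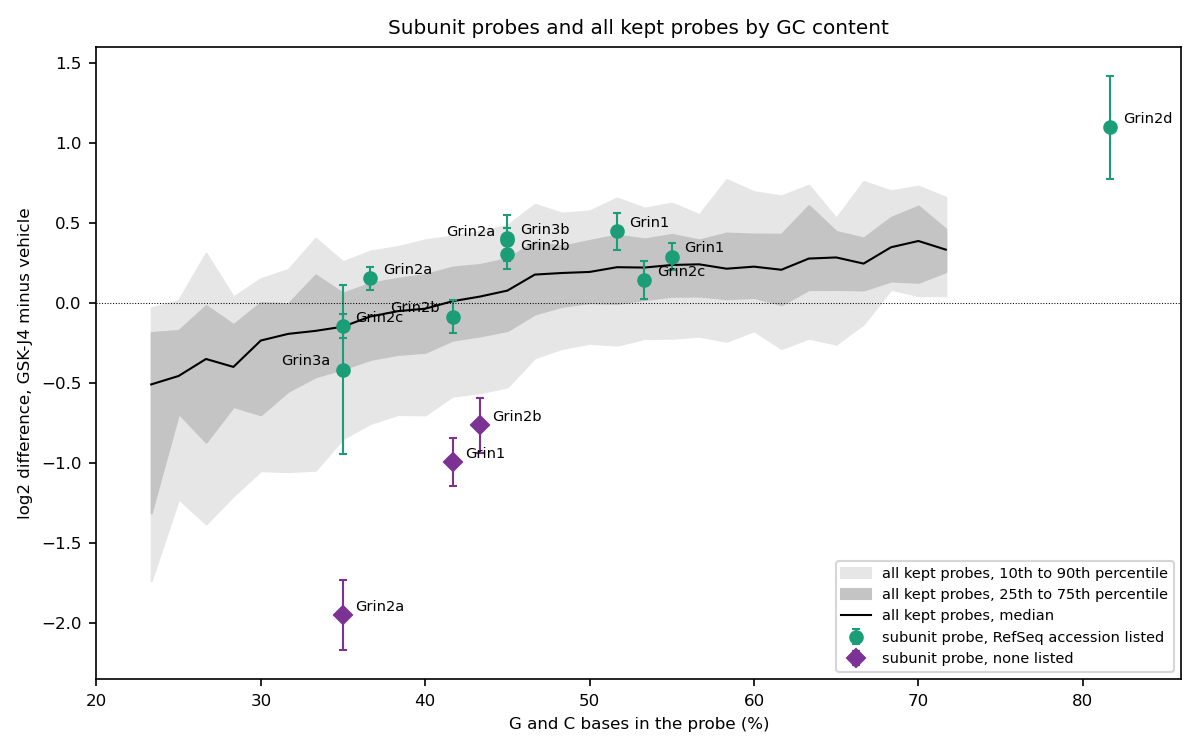
Log2 difference, GSK-J4 minus vehicle, against the share of G and C in the probe, for the 14 kept subunit probes (points with bars of 1 SE) over the median and percentile bands of all 34443 kept probes (contents with under 20 probes left out of the bands). The 3 probes without a RefSeq accession lie at −1.95, −0.99 and −0.76, below the 10th percentile of probes of like content, and the Grin2d probe at 81.7% stands at the top right.

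Base composition moved with the difference over the whole array. The median was −0.15 over the 7292 kept probes with 35% G and C, 0.01 over the 2401 with 41.7%, 0.08 over the 7956 with 45% and 0.24 over the 2617 with 55%. The Grin2a probe A_52_P62744 has the lowest content of the 3 Grin2a probes, and the 2093 probes with the 36.7% of A_55_P2506140 had a median of −0.08. The low Grin1 probe has 41.7% beside 51.7% and 55% at the other 2. The low Grin2b probe has the same content as the mean of the other 2 Grin2b probes. Among kept probes with at most 35% G and C, the median was −0.45 without a RefSeq accession (2302 probes, 31.5% called lower) and −0.10 with one (5588 probes, 9.29% called lower), and above 50% it was 0.22 and 0.24. With the GC trend removed within each array, A_52_P62744 stood at −1.78, A_55_P2717085 at −0.995 and A_55_P2637044 at −0.80. Only 5 kept probes had the 81.7% of the Grin2d probe, with a median of 0.75. They include the Grin2d probe itself, the highest of them.

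**Figure D3:**
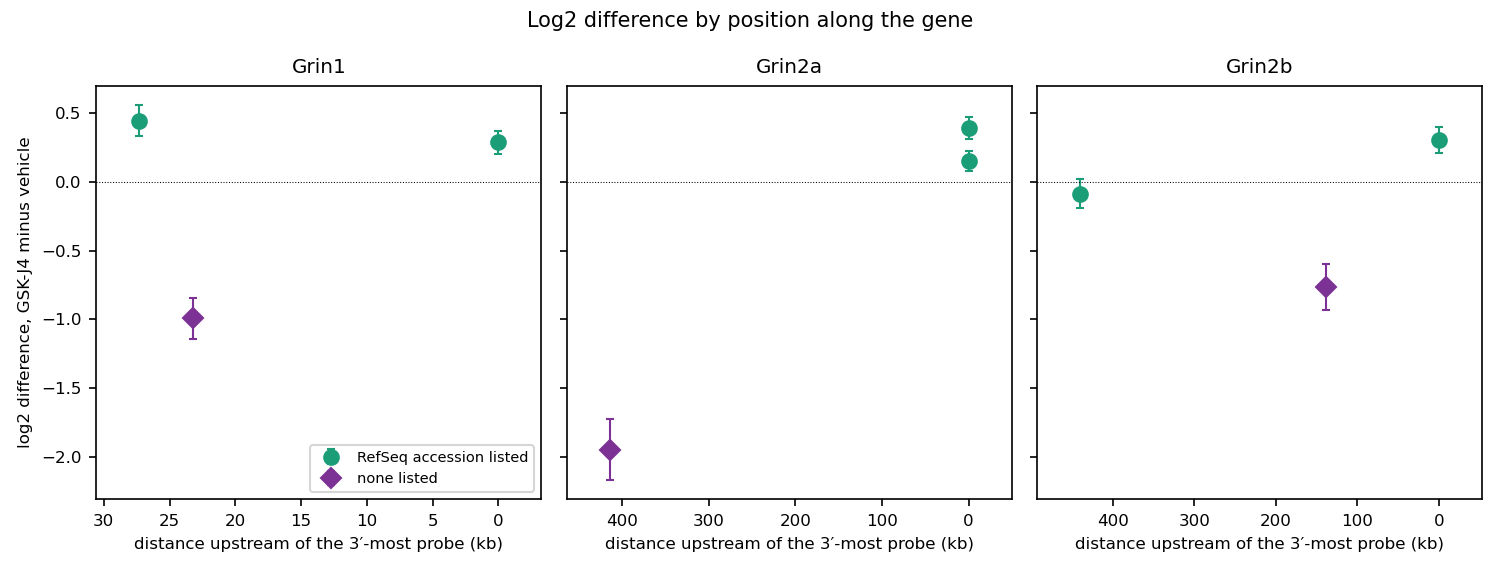
Log2 difference, GSK-J4 minus vehicle, with bars of 1 SE, for the 3 kept probes each of Grin1, Grin2a and Grin2b against their genomic distance in kb upstream of the 3′-most probe of the gene. The probes without a RefSeq accession (purple) lie at 23.2 kb, 414 kb and 138 kb, and in Grin1 and Grin2b a probe further upstream lies nearer to 0 or above it.

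Genomic distance from the 3′-most probe of the gene did not by itself order the probes. It is not the distance to the 3′ end of the transcript that each probe reads, which was not assigned, so an effect of that distance was not tested. The probe furthest upstream was the lowest in Grin2a, but in Grin1 the probe at 27.3 kb stood at 0.45 and that at 23.2 kb at −0.99, and in Grin2b the probe at 440 kb stood at −0.08 and that at 138 kb at −0.76. A few probes of other names lie within the stretches spanned by the subunit probes. The opposite-strand gene Grin1os, within the Grin1 stretch, read 7.06 ± 0.083 against 7.17 ± 0.26 (SD, n = 3 each), a difference of 0.11 (SE 0.15, limma adjusted p = 0.606). LOC105242800, on the opposite strand within Grin2b, had a difference of 0.41 (SE 0.12, limma adjusted p = 0.062), and A_55_P2516804, an unnamed probe on the Grin3a strand, one of 0.18 (SE 0.34, limma adjusted p = 0.732). None of these 3 passed the test, a probe of Ppp3r2 on the Grin3a strand was not kept, and no probe of another gene lay within the Grin2a stretch.

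The probes whose pattern over the 6 arrays was most like that of a Grin2a probe differed between its 2 extremes. Closest to A_52_P62744, by the root mean square difference of log2 signals centred per probe, were probes of Gm31606 (0.16), of Cacna1e, a subunit of R-type calcium channels (0.16), and of Pde4d, a cAMP phosphodiesterase (0.16), with differences of −1.73, −1.80 and −1.95. The Cacna1e and Pde4d probes list no RefSeq accession and have 35% G and C, as A_52_P62744 does, while the closest, that of Gm31606, lists one and has 43.3%. Closest to A_55_P1980481 were probes of Gm29154 (0.017), of Arvcf, a catenin (0.025), and of Exosc4, a part of the RNA exosome (0.031), with differences of 0.38, 0.40 and 0.43, all with a RefSeq accession.

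Genes that work with the receptor were read at 1 probe each, the kept probe of highest mean signal. Of 56 such genes 54 were kept, and 5 passed an adjusted p of at most 0.05 in limma over 22117 genes, 4 of them higher in GSK-J4 and 1 lower. That is 9.26% of the 54, where 16.8% of all genes passed (9% higher and 7.77% lower). Higher genes made up 53.7% of all gene calls here and 67.7% after scaling to the 75th percentile. Their median difference was 0.05, beside 0.04 over all genes. The list did not exceed the share of all genes. Scaling to the 75th percentile raised the number of calls to 12, all higher, removing the GC trend lowered it to 1, and the mean of a gene's kept probes gave 3 higher and 5 lower. In limma it was 2 without GSK-J4 array 2 and 0 without any other single array, where 10 to 18 genes had an unadjusted p under 0.05 as against 15 with all arrays.

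Among 13 scaffold genes of the postsynaptic density, 2 rose and 0 fell at the brightest probe, which is 15.4% beside 16.8% of all genes. Shank1 and Shank2, which link receptor complexes to the actin skeleton, rose from 8.73 ± 0.10 to 9.23 ± 0.19 and from 8.68 ± 0.10 to 9.21 ± 0.22 (SD, n = 3 each), by 0.50 (limma adjusted p = 0.0436) and 0.52 (limma adjusted p = 0.047). Their groups did not overlap. The other Shank1 probes had 1.05 (limma adjusted p = 0.027, taken across the kept probes), −1.04 (limma adjusted p = 0.634) and 0.07 (limma adjusted p = 0.645). The other Shank2 probes had 0.67 (limma adjusted p = 0.0486) and 0.08 (limma adjusted p = 0.706). The members of the PSD-95 family, which anchor GluN2 tails, did not pass at their brightest probes, where Dlg4, which encodes PSD-95, had 0.44 (limma adjusted p = 0.101), Dlg3 −0.21 (limma adjusted p = 0.0982) and Dlg2 −0.10 (limma adjusted p = 0.656). Another Dlg4 probe, A_51_P302256, rose by 0.80 (limma adjusted p = 0.0146, taken across the kept probes). The third, A_55_P2931373, had 0.01 (limma adjusted p = 0.947). All 3 list a RefSeq accession. Across the kept probes, another Shank3 probe was also called higher, by 0.89 (limma adjusted p = 0.0256). Called lower were probes without an accession of Dlg2 (given below), Cask and Dlgap1. The Cask probe had −0.61 (limma adjusted p = 0.037), and those of Dlgap1 had −1.28 (limma adjusted p = 0.0254) and −1.13 (limma adjusted p = 0.0144).

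Of 14 kinases and phosphatases that act on the receptor, 1 rose at the brightest probe, which is 7.14% beside 16.8% of all genes. Src, a tyrosine kinase that raises channel activity, went from 10.54 ± 0.12 to 11.02 ± 0.089 (SD, n = 3 each), by 0.48 (limma adjusted p = 0.028). The Src probe has 55% G and C, a content at which 22.5% of all kept probes were called higher. Its relative Fyn had 0.08 (limma adjusted p = 0.648), the opposing tyrosine phosphatase Ptpn5 had 0.16 (limma adjusted p = 0.277) and the calcium/calmodulin kinase Camk2a, which docks on GluN2B, had −0.35 (limma adjusted p = 0.174).

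Among 6 genes of downstream signalling, 1 rose and 1 fell at the brightest probe. That is 33.3% beside 16.8% of all genes, and nothing is read from a share of so few genes. Nos1, the neuronal nitric oxide synthase tethered to the receptor, rose from 6.48 ± 0.20 to 6.97 ± 0.096 (SD, n = 3 each), by 0.49 (limma adjusted p = 0.0457), at a probe without a RefSeq accession. That probe also has 55% G and C. Rasgrf1, an activator of Ras, went from 13.37 ± 0.095 to 13.03 ± 0.060 and fell by 0.34 (limma adjusted p = 0.0396). Among the 6 kept of 8 genes of co-agonist supply and removal, limma called 0 at the adjusted threshold, with 3 at an unadjusted p under 0.05. There Srr, which makes D-serine, had −0.19 (limma adjusted p = 0.246) and Slc6a9, the glycine transporter, had 0.20 (limma adjusted p = 0.138). Of 4 genes of glutamate removal limma called 0, with 0 at an unadjusted p under 0.05, and of 11 auxiliary, trafficking or surface partners 0, with 1 at an unadjusted p under 0.05. The methods' t-test at its thresholds called 0 of the 54 genes, with 11 at an unadjusted p under 0.05.

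**Figure D4:**
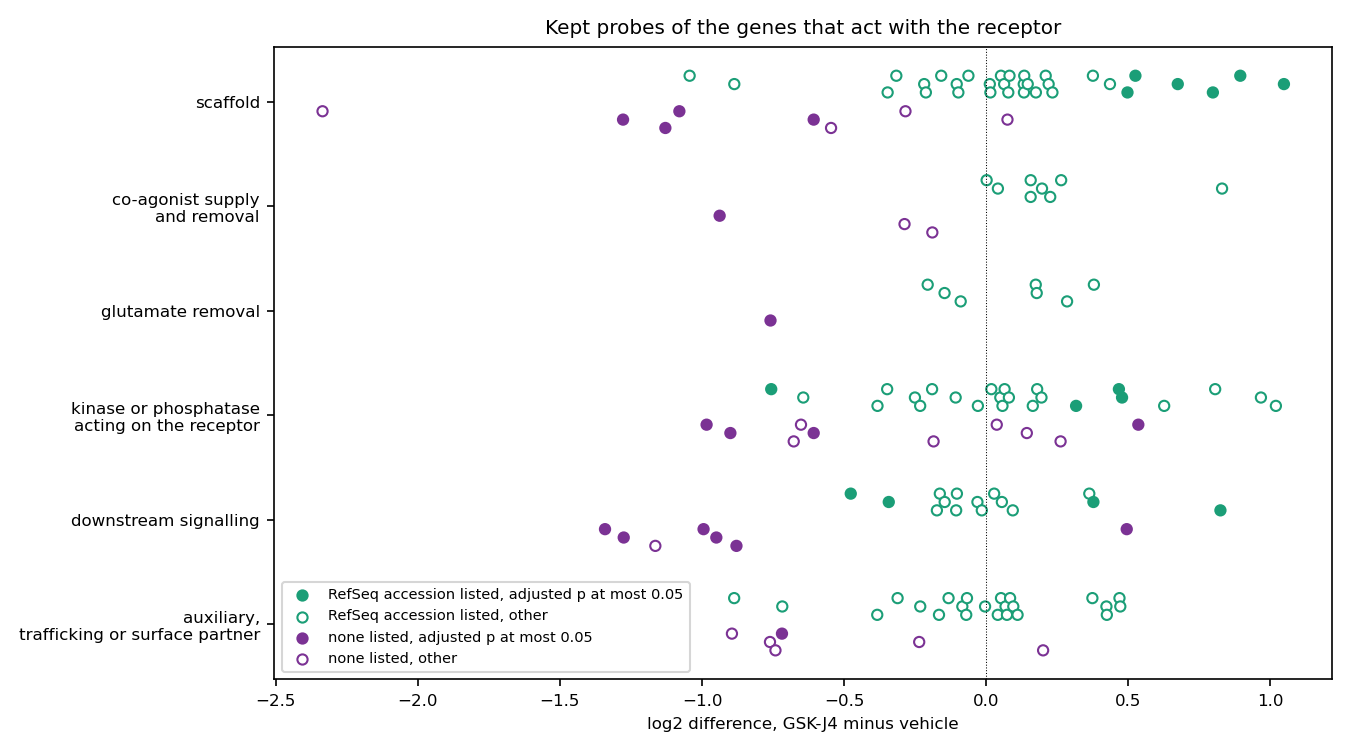
Log2 difference, GSK-J4 minus vehicle, of all kept probes of the genes that act with the NMDA receptor, by role, with probes that list a RefSeq accession in green and the others in purple (filled where the limma adjusted p over all kept probes was at most 0.05). Of 109 probes with an accession 11 were called higher and 3 lower, and of 35 without one 2 were called higher and 15 lower. Of all kept probes on the array with an accession, 9.08% were called higher and 4.68% lower. Of those without one, 6.61% were called higher and 17.9% lower.

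The partner genes also had probes that disagreed. Over all their kept probes the median difference was 0.06 with a RefSeq accession (109 probes) and −0.72 without one (35 probes). The Camk2a probe without an accession had −0.90 (limma adjusted p = 0.012) and the other 2 had −0.35 and 0.19. The Dlg2 probe without one had −1.08 (limma adjusted p = 0.0144), while the other 5 lay between −0.10 and 0.22. For Srr 1 of the 2 probes without an accession had −0.94 (limma adjusted p = 0.0468), and the 3 with one lay between 0.00 and 0.16. Rasgrf1 had −1.34 (limma adjusted p = 0.0299) at its probe without an accession and −0.34 and −0.10 at the others. Nos1 was higher at both of its probes, by 0.49 (limma adjusted p = 0.0471) without an accession and by 0.82 (limma adjusted p = 0.0254) with one. The 3 Ptpn5 probes without an accession disagreed among themselves, at 0.53 (limma adjusted p = 0.0191), −0.19 (limma adjusted p = 0.536) and −0.68 (limma adjusted p = 0.118), beside 0.16 with one.

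**Figure D5:**
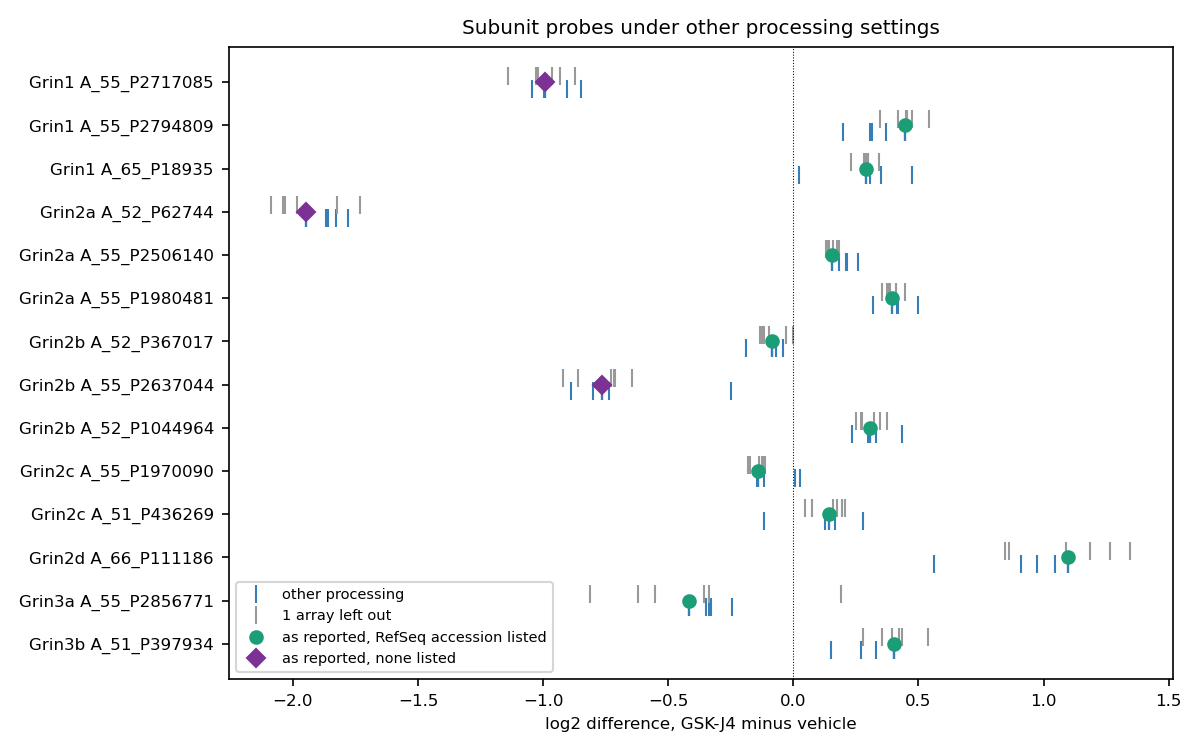
Log2 difference, GSK-J4 minus vehicle, of each kept subunit probe as reported (large symbols), under other processing (blue ticks) and with 1 array left out (grey ticks). The 3 low probes stay left of 0 and the Grin2a probes keep their order in every setting shown, while both Grin2c probes and the Grin3a probe cross 0.

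Under the 14 other settings drawn in the plot of alternatives, A_52_P62744 of Grin2a ran from −2.09 to −1.73, A_55_P2506140 from 0.13 to 0.26 and A_55_P1980481 from 0.32 to 0.50. The low Grin1 probe ran from −1.14 to −0.85 and the low Grin2b probe from −0.92 to −0.25. The low Grin2b probe did not pass the adjusted threshold with normexp background correction or without the filter on dim probes. Among these settings the other filters and the replicate block cannot change a probe's difference, and the deposited table is also quantile normalized. In limma without vehicle array 1, 2 or 3, 0 of the 14 subunit probes passed the adjusted threshold, as did 10, 13 and 5 of all kept probes, while 8 subunit probes had an unadjusted p under 0.05 in each case. The methods' t-test called 4 subunit probes at its thresholds and 0 after Benjamini-Hochberg adjustment.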

How the data were processed

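Hypothalamic RNA of 3 mice given GSK-J4 and 3 given vehicle was measured in a single colour on Agilent SurePrint G3 arrays. The authors scanned the arrays and deposited the background-corrected intensity and the flags of each spot from Feature Extraction (10.7.1.1 per the submitters' processing notes). The log2 table that the authors deposited beside it (56745 probes) is quantile normalized according to the methods. The subunits, lists and tests were chosen with earlier results of these data known.

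Control spots and outlier spots were left out, and 0 spots were saturated. The log2 intensities of the 59305 other spots were averaged per probe (56605 probes) and quantile normalized in R 4.3.3 with limma 3.58.1 and data.table (1.17.8). A probe was kept if either group had it well above background on each array (34443). The comparison used lmFit and eBayes (two-sided, no covariates) with Benjamini-Hochberg adjustment over all kept probes, or over 22117 genes read at their kept probe of highest mean. The fit was tested on simulated data. The tests set the difference between groups against the spread between 3 arrays a group, moderated across probes, and this number limits the precision. Each group lay on a single slide, so that spread does not include variation between slides. All subunit probes were named, and of the partner genes those past the threshold plus Dlg4, Dlg3, Dlg2, Srr, Slc6a9, Camk2a, Fyn, Ptpn5 and Nos1.

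Alternatives were 75th percentile scaling, normexp (offset 50) as background correction, the deposited table, other filters, removal of the GC trend within arrays (lowess, span 0.3), the replicate number as a block, array weights, the methods' t-test, the mean probe of a gene, and each array left out. All columns of the deposited table were matched to samples by name. A gene of the partner list and a probe sequence are not reported here. ChIP-Seq, RT-PCR and the animal experiments were not analysed here.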

Additional observations from a re-analysis of the deposited data

How the results depend on the processing

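The distance between the Grin2a probes was 2.10 to 2.46 over all alternatives. Of the 14 subunit probes 4 passed the adjusted threshold as reported, with 5781 probes and 3709 genes on the array and 5 partner genes. With 75th percentile scaling there were 6146 genes (67.7% of them higher, against 53.7% as reported) and 12 partner genes. With probes above background on all arrays, or the mean of a gene's kept probes, there were 8 partner genes (5 and 3 of them higher). Without a filter on dim probes there were 3781 probes, 2360 genes and 1 partner gene, and with the GC trend removed 3605 probes (41.3% higher, against 50% as reported), 2248 genes and 1 partner gene. The methods' t-test, at the thresholds of the methods, called 2936 probes (38.9% higher), 1705 genes (43% higher) and 0 partner genes, and after Benjamini-Hochberg adjustment 59 probes, 71 genes, 0 subunit probes and 0 partner genes (9 and 11 of them at an unadjusted p under 0.05). With normexp the Grin2b distance was 0.55. The replicate block left 0 probes, 0 genes, 0 subunit probes and 0 partner genes in limma (11079, 7106, 9 and 16 at an unadjusted p under 0.05). Same-numbered arrays deviated with correlations of 0.007, 0.026 and 0.082, and differently numbered ones with −0.098 to 0.093. These values show no pairing by number, but they cannot tell whether arrays were collected or processed in pairs. Leaving out each array in turn gave 5 to 4152 probes, 12 to 2590 genes, 0 to 3 subunit probes, 0 to 2 partner genes, and distances of 2.18 to 2.46 for Grin2a and 0.91 to 1.30 for Grin2b. The loss was larger without a vehicle array (5 to 13 probes) than without a GSK-J4 array (2407 to 4152 probes), and its cause was not tested. The median within-gene difference of the other genes between probes without and with a RefSeq accession ranged from −0.42 to −0.15, over settings chosen after seeing the data.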
